A study of Mus musculus with 26 samples.

Results

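The sites described here are places in the mouse genome listed for both C/EBPalpha and C/EBPbeta a week after partial hepatectomy, and in neither factor's list at the start. The factors were profiled separately, so a site in both lists need not hold both at once. Region centres of all 16 C/EBP lists (2 factors at 8 times) were pooled, and centres at most 100 bp apart were chained into sites. A late-gained site was in the 168 h lists of both factors and in none of the 4 lists of 0 h and 3 h. This rule selected 462 of 113957 sites, or 2.28% of the 20295 sites that both 168 h lists held. The members were thus selected on the lists of 0, 3 and 168 h, and what they show about the members is description only. A late-gained site was 23 to 481 bp wide (median 90.5) and combined 2 to 11 regions.

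C/EBPalpha and C/EBPbeta are basic leucine zipper transcription factors that bind DNA as pairs, with each other or with themselves, at sites close to the palindrome TTGCGCAA. C/EBPalpha is abundant in the resting liver, where it supports the genes of hepatocyte metabolism and restrains division. C/EBPbeta is induced by inflammatory signals and after loss of liver tissue, and takes part in the acute phase and in regeneration. Because both read the same motif, a site can hold either factor in turn or a mixture of them.

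The liver came from male C57BL6/J wild-type mice of 7 weeks that lost 3 of 5 lobes. The removed tissue was the 0 h sample, and the regrowing liver was taken at 3, 8, 16, 24, 36, 48 and 168 h. Chromatin immunoprecipitation and sequencing was made at each time with antibodies to both C/EBP factors and to RNA polymerase II (Pol II), and at 36 h with an antibody to Egr1, an immediate early transcription factor. Each antibody and time had 1 sample, from 5 mice per time whose pooling the labels do not state, so no value below has a replicate. There was no unoperated or sham-operated group at the later times among the samples used, and whole liver was taken, so fewer cells of a type and less signal per cell cannot be told apart.

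The C/EBP lists held 20061 to 54574 regions. Read depth is unknown, because the lists give positions and scores but no read counts. In Pol II, all 10 hepatocyte markers (Alb, Ttr and others) were above 0.5 signal units per bp in at least 1 library, with a summed level of 536 to 1016. The summed level was 3.10 to 8.92 for 11 Kupffer cell and macrophage markers and 4.07 to 6.33 for 10 endothelial markers. It was 2.89 to 5.84 for 12 stellate cell and fibroblast markers, 0 to 3.93 for 6 bile duct markers, 0 to 1.14 for 10 lymphocyte markers and 0 to 0.420 for 6 neutrophil and monocyte markers. No measured marker of any of these cell types lay within 10 kb of a late-gained site.

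Among the members, 8 had a centre within 250 bp of a gene start, and the DNA before 5 of these starts is shown here. The 250 bases upstream of the start are from RefSeq (GRCm38.p6), on the strand of the gene and from 5′ to 3′, found by gene symbol, while the sites are in the build mm9. The RefSeq start can differ from that in the files, so a site cannot be placed on a base. Capitals mark matches to TTGCNNAA, a relaxed form of the C/EBP palindrome, on either strand. Ubxn4, Plin1 (named Plin in the files) and Arl11 are shown because they hold such matches, Ift74 because its site was in 9 of the 10 lists of 8 to 48 h, and Rpl6 because its site lay closest to the start.
Ubxn4: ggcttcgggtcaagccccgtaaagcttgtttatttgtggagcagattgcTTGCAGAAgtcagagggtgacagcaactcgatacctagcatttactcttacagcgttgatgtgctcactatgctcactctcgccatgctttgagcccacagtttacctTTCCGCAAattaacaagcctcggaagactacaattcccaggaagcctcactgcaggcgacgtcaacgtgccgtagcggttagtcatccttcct
Plin1: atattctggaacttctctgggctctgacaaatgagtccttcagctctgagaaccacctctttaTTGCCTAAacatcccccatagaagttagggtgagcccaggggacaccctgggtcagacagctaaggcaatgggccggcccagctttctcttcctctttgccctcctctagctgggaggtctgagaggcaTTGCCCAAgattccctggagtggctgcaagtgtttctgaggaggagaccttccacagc
Arl11: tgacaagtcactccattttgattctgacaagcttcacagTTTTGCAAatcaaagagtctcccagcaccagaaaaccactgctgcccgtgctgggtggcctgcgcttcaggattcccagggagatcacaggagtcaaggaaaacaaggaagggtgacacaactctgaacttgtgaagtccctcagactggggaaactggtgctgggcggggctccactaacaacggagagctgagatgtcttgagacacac
Ift74: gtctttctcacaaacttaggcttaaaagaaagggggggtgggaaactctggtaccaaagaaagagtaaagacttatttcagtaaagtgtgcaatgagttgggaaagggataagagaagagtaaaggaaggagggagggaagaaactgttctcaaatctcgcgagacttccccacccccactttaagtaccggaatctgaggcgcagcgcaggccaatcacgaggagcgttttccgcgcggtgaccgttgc
Rpl6: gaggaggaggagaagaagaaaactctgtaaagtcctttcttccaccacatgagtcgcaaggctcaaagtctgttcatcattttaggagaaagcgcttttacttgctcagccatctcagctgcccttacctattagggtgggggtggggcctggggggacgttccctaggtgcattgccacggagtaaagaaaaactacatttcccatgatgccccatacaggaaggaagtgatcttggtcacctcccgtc
Ubxn4 codes for a protein of endoplasmic reticulum-associated degradation, Plin1 for the lipid droplet coat protein perilipin 1, Arl11 for a small GTPase, Ift74 for a subunit of intraflagellar transport and Rpl6 for a ribosomal protein. The Ubxn4 promoter held TTGCNNAA at 194 and 86 bases upstream of its start, the Plin1 promoter at 180 and 51 bases, and the Arl11 promoter at 204 bases. The promoters of Ift74 and Rpl6 held none in these 250 bases. Of the 8 genes, 7 had a RefSeq promoter, and 3 of the 7 held a match, those of Ppp2r3c and Col6a6 (E330026B02Rik in the files) holding none. Over 32851 mouse promoters of the same length, 9.56% held TTGCNNAA and 0.164% held the full palindrome TTGCGCAA, every match to which is also a match to TTGCNNAA. GCGTGGGCG, the Egr1 motif, was in 0.536% of promoters and in none of these 5. A match of letters is a description and not a binding site.

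The late-gained sites mostly did not wait until 168 h. Of the 462, 190 (41.1%, Wilson 95% interval 36.7 to 45.7) were first listed for either factor at 8 h and another 95 (20.6%) at 16 h. The later times added 32 (6.93%) at 24 h, 49 (10.6%) at 36 h and lastly 13 (2.81%) at 48 h. In all, 379 (82.0%) were in at least 1 of the 10 lists of 8 to 48 h, and 83 (18.0%, interval 14.7 to 21.7) were in none before 168 h. These intervals, like all below, cover counting error only.

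**Figure D1:**
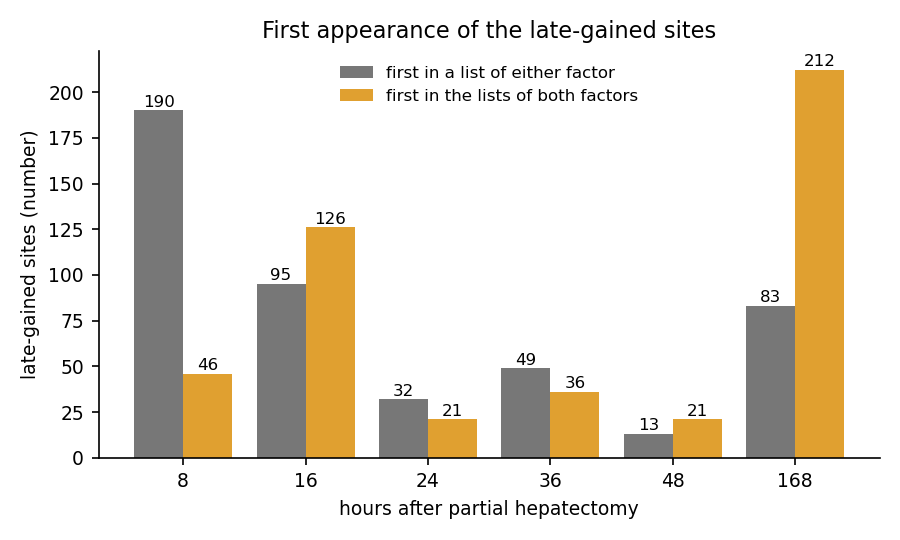
Number of late-gained sites (y axis) by the time of their first appearance (x axis, hours after partial hepatectomy), in a list of either factor (grey) and in the lists of both factors at the same time (orange). The grey bars are tallest at 8 h (190 sites), and the orange bars at 168 h (212 sites) and 16 h (126 sites).

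The late-gained sites first seen at 8 h were mainly in the C/EBPbeta list. At that time 118 sites were listed for C/EBPbeta alone, 26 for C/EBPalpha alone and 46 for both. The C/EBPbeta list of 8 h was also the longer (36258 against 31267 regions). It likewise held more of the other sites in both 168 h lists (91.9% against 74.9%). At 16 h the 95 newcomers were mostly listed for both factors at once, in 71 cases, with 13 for C/EBPalpha alone and 11 for C/EBPbeta alone. Listing for both factors at the same time point thus first occurred at 8 h for 46 sites and at 16 h for 126. It first occurred at 24 h for 21, at 36 h for 36 and finally at 48 h for 21. For the remaining 212 sites (45.9%) it first occurred at 168 h, where the rule required it.

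By list, C/EBPalpha held 72 of the 462 sites at 8 h (15.6%), 163 at 16 h (35.3%), 167 at 24 h (36.1%), 186 at 36 h (40.3%) and finally 111 at 48 h (24.0%). C/EBPbeta held 164 at 8 h (35.5%), 163 at 16 h (35.3%), 181 at 24 h (39.2%), 235 at 36 h (50.9%) and finally 153 at 48 h (33.1%). The highest share of either factor was at 36 h and the 48 h shares were lower, where the lists were also the shortest (20061 and 20608 regions). The C/EBPbeta share was higher at 4 of 5 times and equal at 16 h. The mean difference was 8.53 percentage points ± 7.70 (SD, n = 5 times; means 38.8% and 30.3%), and the two-sided exact sign-flip permutation test over times gave p = 0.125, where 0.0625 is the smallest p that 5 times allow. The full lists were of unequal length, at 8 h 36258 regions against 31267 for C/EBPalpha. With each list set to its 20061 top-scoring regions, which also changed the selection to 774 sites, the difference was 0.388 points (exact permutation p = 0.8125).

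**Figure D2:**
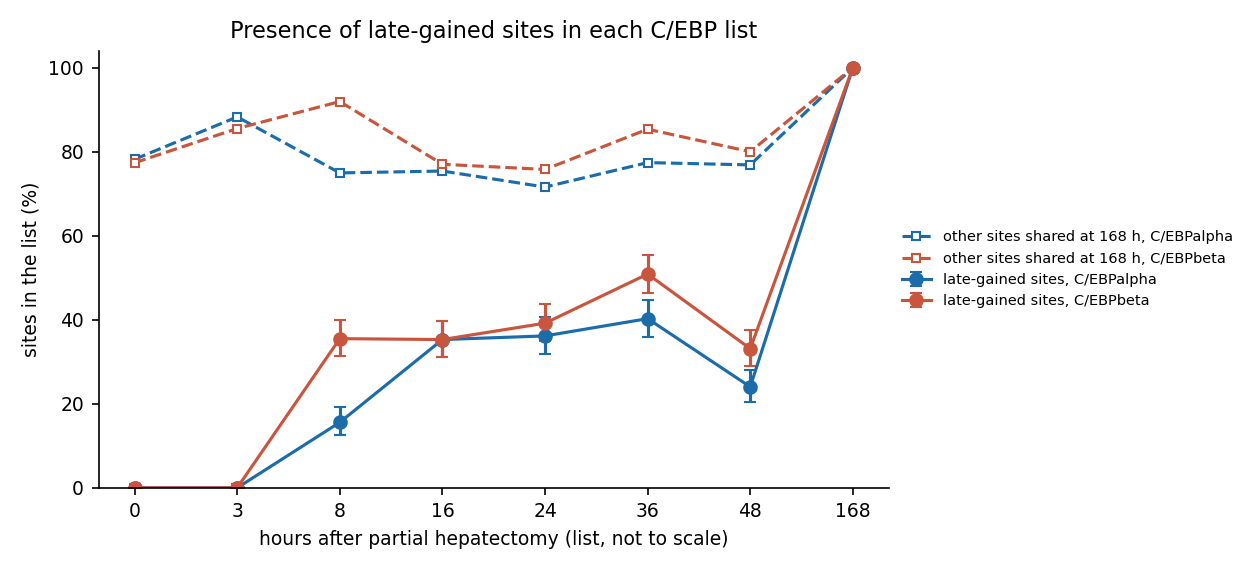
Share of sites in each C/EBP list (y axis, percent) by time (x axis, hours, not to scale), for late-gained sites (filled circles, solid lines, with Wilson 95% intervals) and for the other sites that both 168 h lists held (open squares, dashed lines), with C/EBPalpha in blue and C/EBPbeta in red. The values at 0, 3 and 168 h of the late-gained sites follow from the rule. Between 8 and 48 h they lie from 15.6% to 50.9%, below the other sites (71.6% to 91.9%).

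The other 19833 sites shared at 168 h were in the C/EBPalpha lists of 8, 16, 24, 36 and 48 h in 74.9%, 75.4%, 71.6%, 77.4% and 76.8% of cases. In the C/EBPbeta lists they were present in 91.9%, 77.0%, 75.8%, 85.3% and 80.0%. The late-gained sites were below these shares in all 10 lists. In both lists of a time were 46 late-gained sites at 8 h (9.96%), 135 at 16 h (29.2%), 132 at 24 h (28.6%), 145 at 36 h (31.4%) and finally 73 at 48 h (15.8%). The corresponding shares of the other sites were 72.9%, 69.97%, 65.1%, 72.2% and 69.8%.

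Once first listed, the late-gained sites came and went in the lists. Of the 366 first seen at 8 to 36 h, 122 (33.3%) were in a list of either factor at every later time up to 48 h. This was the case for 50 of the 190 sites first seen at 8 h (26.3%), 41 of 95 at 16 h (43.2%), 9 of 32 at 24 h (28.1%) and 22 of 49 at 36 h (44.9%). Sites first seen earlier had more later times to meet, so these shares cannot be compared between first times. The median late-gained site was in 3 of the 10 lists, against 9 for the other sites shared at 168 h. In 1 or 2 lists were 122 members, in 5 or more 158 (34.2%), in 8 or more 47 (10.2%) and in 9 lists 21, while no member was in all 10. Of the other sites 65.8% were in 8 or more lists and 40.9% in all 10. Over the 10 lists, 289 members were listed for both factors, 64 for C/EBPbeta only and 26 for C/EBPalpha only.

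The same count can be made for the 5 times from 8 to 48 h, as sites in the lists of both factors and in no 0 h or 3 h list. At 8 h these were 748 of 22063 shared sites (3.39%), at 16 h 1737 of 22297 (7.79%) and at 24 h 2680 of 22146 (12.1%). The number was then 870 of 19416 at 36 h (4.48%) and 195 of 15734 at 48 h (1.24%). The share of them that were late-gained sites, and so still shared at 168 h, was 6.15% at 8 h, 7.77% at 16 h, 4.93% at 24 h, 16.7% at 36 h and finally 37.4% at 48 h. Most sites that both factors gained at 24 h were therefore not in both lists at 168 h.

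The 3 h lists decide how many sites count as late. Of the 2972 sites in both 168 h lists and in no 0 h list, 2510 (84.5%) were in a 3 h list and 462 (15.5%) were not. Near the threshold of the rule, 9 members had a 0 h or 3 h centre just outside it, at over 100 to 110 bp, and 89 had it at up to 200 bp. Just inside, 56 other sites had their nearest such centre 90 to 100 bp from a 168 h centre. For another 99 it was over 100 bp from a 168 h centre and was chained to it through other lists. Distances of members were taken from any of their region centres and those of other sites from 168 h centres only, so these counts are unlike measures. The median distance from a member to the nearest 0 h or 3 h centre was 1327.25 bp, and 93 members had none within 10 kb. Of the members, 298 had no such centre within 500 bp of their middle.

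The authors' scores, which run from 1 to 1000 within each list, were low at these sites. At 168 h the C/EBPalpha score was 1 to 121 (median 18) and the C/EBPbeta score 1 to 141 (median 22). These medians lay at the 29.0 and 27.3 percentile of their lists, against 61.3 and 60.3 for the other shared sites. In the upper part of the list, above its median, were 94 members for C/EBPalpha (20.3%) and 95 for C/EBPbeta (20.6%). These values come from lists that chose the members and carry no test.

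Presence at 8 to 48 h went with the score at 168 h. With the mean of both score percentiles at 0 to 25, 215 late-gained sites were in 2.13 of the 10 lists on average. At 25 to 50, 163 sites were in 3.92, at 50 to 75, 73 sites in 5.68 and at 75 to 100, 11 sites in 7.55. The other shared sites were in 4.83, 6.62, 8.46 and 9.68 lists in the same bands, so within each band the late-gained sites were in about 2 to 3 lists fewer. By the rule, every other shared site was in a list of 0 h or 3 h and no late-gained site was. The part of this selection in the difference was not tested. In none of the 10 lists were 58, 24, 1 and 0 late-gained sites from the lowest to the highest band.

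**Figure D3:**
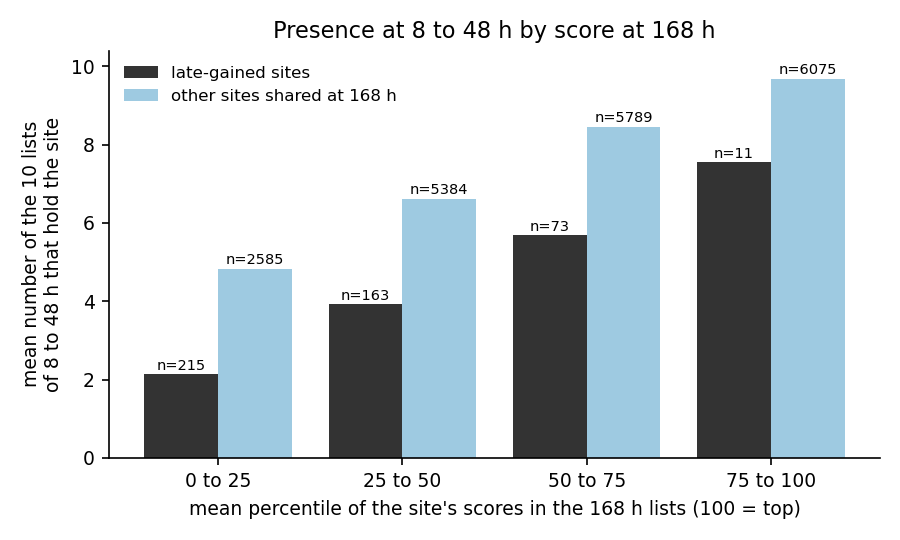
Mean number of the 10 lists of 8 to 48 h that held a site (y axis) by the mean percentile of its scores in the 168 h lists (x axis, 100 is the top), for late-gained sites (black) and other sites shared at 168 h (blue), with the number of sites above each bar. The bars rise from 2.13 to 7.55 for late-gained sites and from 4.83 to 9.68 for the others.

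The late-gained site that ranked first by the summed rank of both 168 h scores lay on chromosome 4 (chr4:147994956-147995088), inside Tardbp, 4449.5 bp downstream of its start. Tardbp codes for TDP-43, an RNA-binding protein of splicing. The site was in every list of 8 to 48 h except that of C/EBPalpha at 8 h, lay in an Egr1 peak and had its nearest 0 h or 3 h centre 1778.5 bp away. Pol II over Tardbp was 1.05 signal units per bp (0 h), 0.0270 (3 h), 0.837 (8 h), 0.380 (16 h), 1.10 (24 h), 0.888 (36 h), 0.807 (48 h) and 1.33 (168 h). The 3 h library was lowest and 168 h highest, a log2 change of 0.24 from 0 h that was -0.42 without rescaling.

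The next 4 sites with 9 of the 10 lists, the best-scoring of that number, also missed only C/EBPalpha at 8 h. They lay inside Calcrl, the receptor gene for calcitonin-related peptides (chr2:84198953-84199026), and inside Qk, an RNA-binding protein gene (chr17:10431020-10431070). Another had Ahr, the dioxin receptor gene, as its nearest gene, 147201 bp away (chr12:36366841-36366983). The last lay 402081 bp from the nearest start of a measured gene (chr14:12591286-12591359). Each was seen first with C/EBPbeta at 8 h and with both factors from 16 h. All 4 had a 0 h or 3 h centre nearby, at 229.5 bp (Calcrl), 222.5 bp (Qk), 159.5 bp (Ahr) and 228 bp (the last).

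Of the 7 further sites among the 10 first by that rank, 4 were over 10 kb from every start of a measured gene. They were nearest to Pcdh7 (chr5:57300884-57300955, 808420 bp), Ets2 (chr16:96057770-96057891, 133698 bp), Il17rd (chr14:27930160-27930229, 78008 bp) and Pag1 (chr3:9725747-9725845, inside the gene). The site near Pcdh7 was 319805 bp from any 0 h or 3 h centre and was in 8 of the 10 lists. Those near Ets2 and Pag1 lay in Egr1 peaks. The remaining 3 had Igf2, Ddc and Apoa5 within 10 kb, described with their Pol II below.

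The late-gained sites lay farther from the starts of measured genes than the other sites shared at 168 h. Within 1 kb of a start were 31 (6.71%, interval 4.77 to 9.37), against 13.3% of the others and 9.69% of all sites. Within 10 kb were 124 (26.8%, interval 23.0 to 31.1), against 36.7% and 32.1%. More than 50 kb from every such start were 162 (35.1%), against 26.9% and 33.2%. The median distance was 29330.6 bp against 18559.2 bp and 24035.5 bp. Inside a measured gene were 182 (39.4%), close to the others (39.9%) and to all sites (41.6%). Sites are not replicates and no test was made of these shares.

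Egr1 peaks of 36 h held 39 late-gained sites (8.44%, interval 6.24 to 11.3), near the share of all sites (7.33%) and below that of the other shared sites (19.2%). Of the 235 members in the 36 h C/EBPbeta list, 23 lay in an Egr1 peak (9.79%), and of the 227 not in it, 16 (7.05%). More than 1 kb from a gene start the shares were 8.58% of members and 21.0% of the other shared sites. Within 1 kb they were 2 of 31 members (6.45%) and 7.29% of the others.

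Chromosome 4 had 42 of the late-gained sites and chromosome 1 had 35, which is 3.14% and 2.85% of their sites shared at 168 h. Leaving out the Y chromosome, with 1 shared site and 0 members, the lowest shares were 1.31% on the X chromosome (3 sites) and 1.61% on chromosome 19 (12 sites). The sites were mostly alone, with 14 within 10 kb of another member. Another site shared at 168 h lay within 10 kb of 196 (42.4%), a share that was 47.3% for those other sites. A site present in all 16 lists, of which there were 7060, lay within 10 kb of 94 members and within 1 kb of 11.

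Within 10 kb of a late-gained site were the starts of 145 genes, 0.693% of the 20933 measured for Pol II. They belonged to 124 sites, of which 20 were near 2 or more starts, and 34 of the genes had their start within 1 kb of a site. Of the 145, 69 had Pol II above 0.5 signal units per bp in at least 2 libraries (47.6%, against 22.7% of measured genes and 45.3% of genes near another site shared at 168 h). These 69 are the genes whose Pol II was compared. Of them 34 also had another site shared at 168 h within 10 kb. Levels are per bp of gene body, rescaled between libraries, and changes are log2 differences from 0 h after adding 0.5, which understates the change of low genes.

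As a group, the genes near late-gained sites had median changes near those of all genes compared, apart from 3 h. The median change of the 69 was -0.34 at 3 h, 0.05 at 8 h, 0.17 at 16 h, 0.05 at 24 h, 0.21 at 36 h, 0.18 at 48 h and finally 0.16 at 168 h. For all 4761 genes compared it was -0.08, 0.06, 0.09, 0.07, 0.12, 0.05 and 0.00. The quartiles of the 69 at 168 h were -0.42 and 0.83. At 168 h 15 were higher by 1 or more (21.7%, background over all genes 17.7%) and 9 lower by 1 or more (13.0%, background 19.3%). Without rescaling the libraries, which moved the median of all genes at 168 h to -0.57, the split was 4 higher (background 6.15%) and 22 lower (background 35.2%) of 66. Changes at 168 h are therefore relative to the genes used for rescaling. At 3 h 9 were higher (13.0%, background 18.1%) and 20 lower (29.0%, background 21.4%).

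At the times between, the counts higher by 1 or more were 9 at 8 h (background 14.5%), 11 at 16 h (background 15.1%) and 13 at 24 h (background 18.4%). They were 9 at 36 h (background 16.5%) and 11 at 48 h (background 15.2%). The counts lower were 9 at 8 h (background 12.8%), 6 at 16 h (background 10.6%) and 9 at 24 h (background 14.4%). They were 6 at 36 h (background 11.1%) and 10 at 48 h (background 13.5%). As shares of the 69 these counts lay between 8.70% and 18.8%. Pol II was lowest at 3 h for 37 of the 69 genes (53.6%, against 33.8% of all genes) and highest at 168 h for 16 (23.2%, against 20.8%). The 3 h library stood apart, with a deposited signal that summed to below 0 and 50.6% of gene entries below 0, and its part in these values was not tested.

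No gene near a late-gained site passed the limma trend test over the 8 times at an adjusted p under 0.05, where 1 of 4761 genes did (0.021%). At an unadjusted p under 0.05 there were 8 of the 69 (11.6%) against 458 of all genes (9.62%). The lowest adjusted p from limma near a site was 0.465, shared by 1810006K21Rik, Cebpa, Ddc and Irf5 among others. The rises and falls below are thus differences between single libraries.

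The median change varied with the time at which the site first appeared. For the 8 genes whose site was first seen at 16 h, the median log2 change at 168 h was 1.14. Of these, 5 were higher by 1 or more and 0 lower, where the background over all genes was 17.7% higher and 19.3% lower. The 5 were Sod1, Crem, C9, Hjurp and Akr1c6, with changes of 0.76, 1.08, 0.95, 0.59 and 0.35 without rescaling. With a pseudocount of 2 they were 1.07, 0.54, 0.46, 0.61 and 0.56. For 29 genes with a site from 8 h the median change at 168 h was 0.26, with 4 higher and 2 lower. For 18 with a site from 24, 36 or 48 h it was 0.13, with 5 higher and 2 lower. For the 14 genes whose site was in no list before 168 h it was -0.46, with 1 higher and 5 lower. The genes of this last set were also lower at 3 h (median -0.98), 8 h (-0.50), 24 h (-0.73) and 48 h (-0.43), and near 0 at 16 h (-0.10) and 36 h (0.02). The sets are small, genes sharing a site are not independent, and the difference between them was not tested. By distance, 11 genes within 1 kb of a site had a median change of 0.44 at 168 h, with 2 higher and 3 lower, and 58 genes at 1 to 10 kb one of 0.13, with 13 higher and 6 lower.

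**Figure D4:**
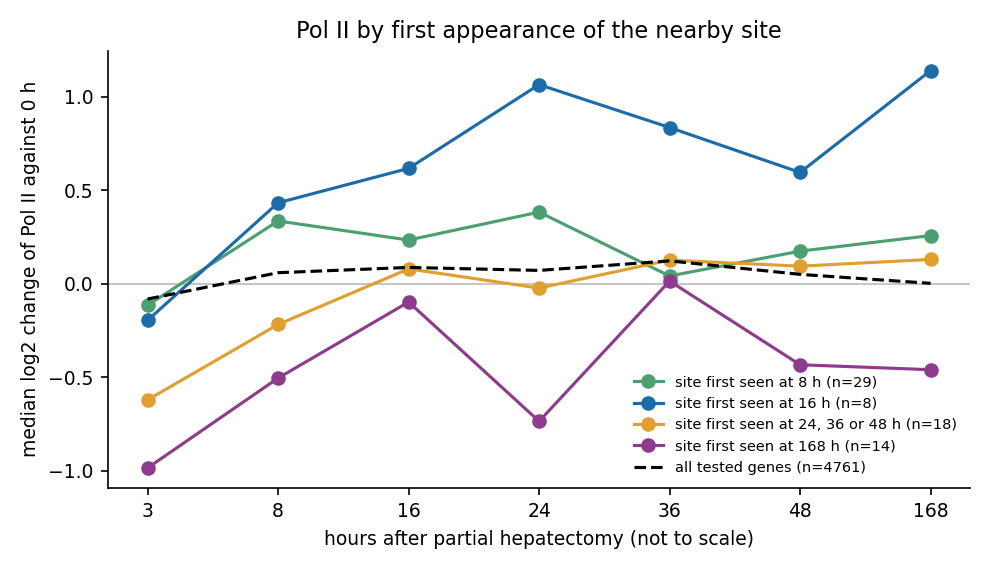
Median log2 change of Pol II against 0 h (y axis) by time (x axis, hours, not to scale) for genes within 10 kb of a late-gained site, split by the first appearance of that site, with all 4761 genes compared as a dashed line. The 8 genes with a site from 16 h end at 1.14 and the 14 with a site only at 168 h at -0.46.

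Among genes with higher Pol II at 168 h, Cxcl1 had the highest level at that time. It codes for a chemokine that attracts neutrophils. Its site (chr5:91319699-91320179) was centred 358.5 bp before the start, was the widest of all members and was listed for both factors at 36 h. A 0 h or 3 h centre lay 230 bp from the nearest of its region centres. Pol II over Cxcl1 was 2.82 signal units per bp (0 h), 14.9 (3 h), 29.1 (8 h), 6.94 (16 h), 8.88 (24 h), 3.70 (36 h), 27.7 (48 h) and 18.2 (168 h). All 7 later libraries were above 0 h, with peaks at 8 and 48 h, and the change at 168 h was 2.49. The 2 times at which its site was listed, 36 and 168 h, were thus its lowest and its third-highest later level.

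Fn1, the gene for fibronectin of plasma and matrix, had a site 2207.5 bp inside the gene (chr1:71697516-71697557), listed for C/EBPalpha at 36 h. Levels were 2.11 signal units per bp (0 h), 11.5 (3 h), 11.00 (8 h), 7.67 (16 h), 7.07 (24 h), 3.06 (36 h), 7.33 (48 h) and 6.81 (168 h). Every later library was above 0 h, with the highest at 3 h and the lowest at 36 h, and the change at 168 h was 1.49. The site also lay 1872.5 bp before the start of Apol7d, closer than to that of Fn1.

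Sod1, the cytosolic superoxide dismutase that breaks down reactive oxygen, had a site 1343.75 bp inside the gene (chr16:90222349-90222422), listed for both factors at 16, 24 and 36 h. Pol II over Sod1 was 1.35 (0 h), 0.915 (3 h), 2.59 (8 h), 2.27 (16 h), 2.80 (24 h), 1.99 (36 h), 2.37 (48 h) and 5.06 (168 h), in signal units per bp. The 168 h level was the highest of the 8, 1.58 above 0 h on the log2 scale. A 0 h or 3 h centre lay 116.5 bp from the nearest of the site's region centres, just past the threshold of the rule.

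Crem, a transcription factor of cAMP signalling, and Akr1c6, a hydroxysteroid dehydrogenase of mouse liver, each had a site in all lists of both factors from 16 to 48 h. The Crem site lay 1068.25 bp inside the gene and the Akr1c6 site 1403.5 bp before the start. Pol II over Crem was -0.235 (0 h), -0.248 (3 h), 0.613 (8 h), 0.137 (16 h), 1.404 (24 h), 0.579 (36 h), 0.576 (48 h) and 0.902 (168 h), in signal units per bp. Pol II over Akr1c6 was 0.702 (0 h), -0.290 (3 h), 0.744 (8 h), 0.966 (16 h), 2.74 (24 h), 1.04 (36 h), 0.968 (48 h) and 1.98 (168 h). Both were highest at 24 h and next at 168 h, with changes of 1.49 and 1.04 at 168 h. Akr1c6 has close relatives beside it in the genome, and the handling of reads that match several copies is not given in the labels.

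C9, the last component of the complement attack complex, had a site 1560.75 bp inside the gene, listed for C/EBPbeta at 16 and 36 h. C9 had -0.116 (0 h), -0.369 (3 h), 0.634 (8 h), 0.603 (16 h), 1.43 (24 h), 0.946 (36 h), 1.31 (48 h) and 0.757 (168 h), in signal units per bp. The 0 and 3 h libraries were below 0 and the other 6 above, with a change of 1.33 at 168 h. 1810006K21Rik had the largest change, 2.51, with -0.213 (0 h), 0.907 (3 h), 2.39 (8 h), 1.78 (16 h), 1.94 (24 h), 0.431 (36 h), 1.65 (48 h) and 2.34 (168 h). Its site, 5262.5 bp before the start, was listed for C/EBPbeta at 8 h. The same site lay nearer to the starts of AC132148.3 (233.5 bp) and Fen1 (4935.5 bp), which were too low in Pol II to be compared.

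Hjurp, the chaperone that loads the centromeric histone, and Glipr2 were the 2 genes with 2 late-gained sites within 10 kb of the start. The genes Fn1, Ptprf, Unc13a and Glipr2 each held 2 in the gene body. The first Hjurp site (chr1:90176415-90176507) lay 2365.5 bp before the start and was listed for both factors at 16 and 36 h. The second (chr1:90164821-90164898) lay 9234 bp downstream of the start and was listed at 168 h only. Pol II over Hjurp was 0.444 (0 h), -1.29 (3 h), 0.589 (8 h), 1.37 (16 h), 0.787 (24 h), 3.29 (36 h), 0.862 (48 h) and 1.72 (168 h), in signal units per bp. The 36 h library was highest, and the change at 168 h was 1.24. Glipr2 was below 0 in all 8 libraries (-0.476 to -0.324).

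The remaining genes among the 10 largest rises were low at 0 h. 2900010J23Rik, with a site listed at 168 h only, went from 0.0303 to 1.57 signal units per bp, a change of 1.96. Zkscan1, a zinc finger protein gene, went from 0.168 to 1.37 (change 1.49), and its site 9112.75 bp before the start was in 7 of the 10 lists. Akirin1, a nuclear protein gene, went from 0.0413 to 0.707 (change 1.16), with a site in 4 lists. Ubxn4, whose promoter is printed above, was -0.0404 at 0 h and 0.592 at 168 h (change 1.13), with a site in 2 lists. Rpl6 was 3.54 at 0 h and 2.53 at 168 h (change -0.42), and its site was in none of the 10 lists. Rpl6 has many processed copies in the genome, to which its reads may also match.

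Cebpa itself was, at 0 h, second in Pol II to Apoa5 among the genes compared near a late-gained site. Its site (chr7:35908557-35908589) lay 4249.75 bp downstream of the start and was in no list before 168 h. A 0 h or 3 h centre lay 385 bp from the nearest of its region centres. Pol II over Cebpa was 93.2 signal units per bp (0 h), 18.9 (3 h), 17.0 (8 h), 9.02 (16 h), 16.9 (24 h), 11.4 (36 h), 21.3 (48 h) and 23.2 (168 h). All 7 later libraries were below 0 h and 168 h was the highest of them, with a log2 change of -1.99 from 0 h. The lowest level was at 16 h, a log2 change of -3.30.

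**Figure D5:**
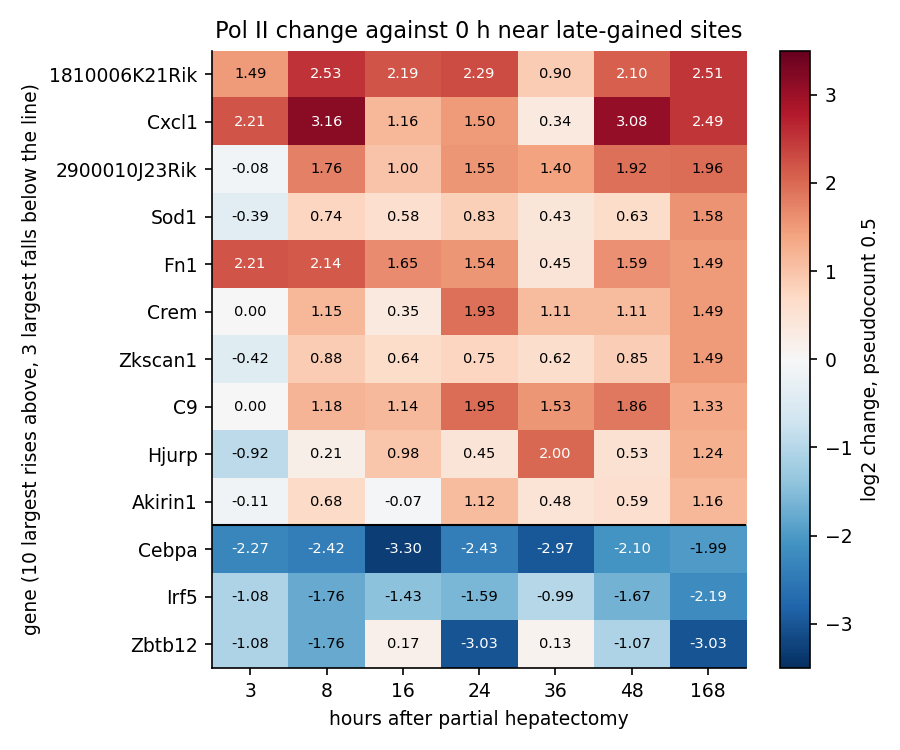
Log2 change of Pol II against 0 h (colour and printed value, pseudocount 0.5) by time (x axis, hours) for the 10 genes near late-gained sites with the largest rise at 168 h (above the line) and the 3 with the largest fall (below it). Cxcl1, Fn1 and 1810006K21Rik are above 0 in every column, and Cebpa lies from -3.30 to -1.99.

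Irf5, a transcription factor of innate immunity, also had its site in no list before 168 h, 3787.25 bp before the start. Irf5 had 2.37 (0 h), 0.862 (3 h), 0.347 (8 h), 0.562 (16 h), 0.452 (24 h), 0.944 (36 h), 0.404 (48 h) and 0.127 (168 h), in signal units per bp. All later libraries were below 0 h, and the change at 168 h was -2.19. Tsc22d3, a gene induced by glucocorticoids, had a site 1240.5 bp inside the gene (chrX:137076462-137076499), likewise listed at 168 h only. Tsc22d3 had 19.2 (0 h), 4.49 (3 h), 7.37 (8 h), 26.4 (16 h), 17.8 (24 h), 23.0 (36 h), 9.16 (48 h) and 9.14 (168 h), so that 16 and 36 h were above 0 h and the change at 168 h was -1.03.

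Mvk, the mevalonate kinase of cholesterol synthesis, and the neighbours Six5 and Dmpk also had sites at 168 h only. The Mvk site lay 395.75 bp inside the gene, and Pol II was 0.842 (0 h), 0.0269 (3 h), 0.329 (8 h), 0.864 (16 h), -0.116 (24 h), 0.775 (36 h), 0.495 (48 h) and -0.831 (168 h). The change at 168 h was -1.42, with 16 and 36 h close to 0 h. Six5, a homeobox gene, and Dmpk, the myotonic dystrophy kinase gene, shared 1 site (chr7:19679149-19679171). Six5 was 0.624 (0 h), 1.08 (3 h), 1.48 (8 h), 3.77 (16 h), 0.2001 (24 h), 2.79 (36 h), 2.61 (48 h) and -0.481 (168 h), in signal units per bp. Its change of -1.17 at 168 h was thus opposite to that of 5 earlier libraries. Dmpk was 2.79 at 0 h and 1.16 at 168 h (change -0.99, short of 1).

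Among lower genes with an earlier site, Zbtb12, a zinc finger gene, had the largest change, -3.03. Its Pol II was 3.58 (0 h), 1.43 (3 h), 0.705 (8 h), 4.08 (16 h), -0.102 (24 h), 3.96 (36 h), 1.44 (48 h) and -1.37 (168 h), in signal units per bp, which swung up and down between neighbouring times. Its site was listed for C/EBPalpha at 24, 36 and 48 h and for C/EBPbeta at none of the 5. Ptprf, a receptor phosphatase gene, went from 0.655 at 0 h to -0.107 at 168 h (change -1.21). Sigirr, an inhibitor of interleukin 1 receptor signalling, went from 2.39 to 0.798 (change -1.15).

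Apoa5, an apolipoprotein that lowers plasma triglycerides, had the highest Pol II of all 69 genes. Its site (chr9:46069478-46069526) lay 7659.5 bp before the start, was in 7 of the 10 lists and was 116.5 bp from a 0 h or 3 h centre. The levels were 159.7 signal units per bp (0 h), 541.4 (3 h), 212.7 (8 h), 113.7 (16 h), 154.7 (24 h), 112.2 (36 h), 120.9 (48 h) and 90.7 (168 h). The 3 h library was highest and 168 h lowest, with a change of -0.81 at 168 h. Ddc, the decarboxylase of aromatic amino acids, had a site 7390 bp before the start (chr11:11797748-11797841) in 7 lists and in an Egr1 peak. Pol II over Ddc was -0.200 (0 h), -0.618 (3 h), -0.0352 (8 h), 0.335 (16 h), 0.729 (24 h), 0.934 (36 h), 0.366 (48 h) and -0.00191 (168 h), so it was above 0 in the 4 libraries of 16 to 48 h only.

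Igf2, a fetal growth factor gene, was near a high-scoring site (chr7:149847898-149848014, in 8 of the 10 lists) but was below 0 in all 8 Pol II libraries, from -1.30 to -0.435. Dock4 and Zfp277, which share 1 site, and Dixdc1 were too low to be compared, with at most 0.592 signal units per bp in any library.

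Few genes of the lists had a late-gained site nearby, as few did over all genes. Of 281 measured genes in 18 lists (hepatocyte functions, transcription factors, the clock, the cell cycle and cell type markers), 4 had a late-gained site within 10 kb (1.42%, against 0.693% of measured genes). For the other sites shared at 168 h it was 184 of the 281 (65.5%, against 29.7%). The other lists held none. The background share of 0.693% is under 1 gene in each list, so nothing is read from these zeros, and genes outside the lists, such as Mvk, Apoa5 and Igf2, have related functions. The 4 were Cebpa among 26 liver transcription factors, Fmo5 among 19 drug metabolism genes, Nags among 20 genes of the urea cycle and amino acids, and Per2 among 15 clock genes.

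Fmo5, a flavin-containing monooxygenase, had a site 928.25 bp before the start, listed for C/EBPalpha at 36 h and C/EBPbeta at 36 and 48 h. Its Pol II was 5.44 (0 h), 7.29 (3 h), 4.01 (8 h), 3.62 (16 h), 6.35 (24 h), 10.7 (36 h), 6.09 (48 h) and 7.56 (168 h), in signal units per bp, with the highest level at 36 h and a change of 0.44 at 168 h (-0.45 without rescaling). Nags, the synthase of the urea cycle activator N-acetylglutamate, had a site 1921.25 bp inside the gene at 168 h only. Nags had 14.7 (0 h), 24.2 (3 h), 15.1 (8 h), 12.9 (16 h), 11.7 (24 h), 18.4 (36 h), 18.0 (48 h) and 12.1 (168 h), a change of -0.26. Per2, a repressor of the circadian clock, had a site 1467.5 bp before the start, listed for C/EBPbeta at 8 h. Its Pol II was 4.52 (0 h), 1.03 (3 h), 2.44 (8 h), 2.54 (16 h), 2.70 (24 h), 2.28 (36 h), 1.41 (48 h) and 2.06 (168 h). Per2 was below 0 h in all later libraries (change -0.97 at 168 h), and the hour of day of each sample is not given in the labels.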

How the data were processed

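The 26 samples, 1 per antibody and time, were grouped by their titles, and 25 files were used. The mock sample was not analysed here. The submitters' processing notes name Bowtie 0.12.7 and MACS 1.4.1, without roles, and mm9 as the build. The deposited C/EBP and Egr1 lists give the authors' score per region. The deposited Pol II files give a signed score per gene, called signal here, over the body from about 500 bp past the start. How the authors scaled it is not given in the labels.

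A site's middle was compared with gene starts, taken as Pol II entries moved back 500 bp by strand. Entries ending before they start, with a shared name or under 500 bp, were left out, leaving 20933 of 31804. Pol II was divided by width and rescaled by median ratios of 1472 genes, which moved changes against 0 h by 0.26, 0.33, -0.32, 0.41, -0.01, 0.33 and 0.97 (log2) from 3 to 168 h. Values below 0 were set to 0 and 0.5 added. Genes above 0.5 in at least 2 libraries (4761) entered limma 3.58.1 in R 4.3.3, fitted as a natural spline (3 degrees of freedom) of time rank, with p adjusted by Benjamini-Hochberg at 0.05. Its spread is that of libraries around a curve, not of replicates. Scripts were tested on simulated data. ChIP carries no strand, so overlapping genes cannot be told apart. Of the 145 gene names, 117 were current RefSeq symbols and 20 older names.

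Named genes were the 10 largest rises and falls at 168 h near members, the 10 with the most or best-scoring members, genes of the lists, the 10 best-scoring members and the 5 in the most lists. Ubxn4 and Rpl6 were given Pol II values because their promoters are printed, and were chosen after their values were seen. The result for 1 gene that this rule selects is not reported here. Members, lists and rules were chosen with earlier results of these data known. The alternatives tried are given at the end.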

Additional observations from a re-analysis of the deposited data

How the results depend on the processing

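No paired analysis was possible because each antibody and time had 1 sample and so no replicate to pair. The factors alone were paired, by time, in the sign-flip test. The number of late-gained sites was 774 with every list set to 20061 regions, 2972 with absence required at 0 h only, 272 with absence required at 8 h as well and 298 with no 0 h or 3 h centre within 500 bp. For these 298, a setting chosen after the data were seen, 81.9% were listed before 168 h. Near them, 10 of 36 genes were higher by 1 or more at 168 h (27.8%, background 17.7%) and 6 lower (background 19.3%). Near the 774 sites from lists of equal length, 22 of 137 were higher (16.1%, background 17.7%) and 19 lower (background 19.3%). Their median change was 0.006, against 0.003 for all genes. The number of late-gained sites was 689 and 376 with chaining at 50 and 200 bp and 667 without the 0 h C/EBPbeta list. The share seen before 168 h was 89.4% with lists of equal length and 88.7% with presence counted within 500 bp. Genes near a site numbered 34 at 1 kb and 331 at 25 kb. The share of compared genes higher by 1 or more at 168 h was 6.06% without rescaling (background 6.15%, median -0.50 against -0.57 for all genes, 22 of 66 genes lower, background 35.2%), 5.80% with a pseudocount of 2 (background 2.58%) and 11.7% with no filter (background 5.48%). Lower by 1 or more were 3 of 69 genes with a pseudocount of 2 (background 6.07%) and 14 of 145 with no filter (background 6.19%). With no filter both directions thus lay above the background, and the median change was 0. With a pseudocount of 0.05 the share higher was 27.5% (background 28.6%), and 13 of 69 were lower (background 26.4%). Genes passing the trend test near a site were 0 in all alternatives, leaving out each library included (range 0 to 0), and the lowest adjusted p near a site ranged from 0.121 to 0.691. Of 27 named genes, 7 (Sod1, Fn1, Zkscan1, C9, Hjurp, Akirin1 and Akr1c6) were higher by less than 1 without rescaling, and 13 past 1 as reported were short of it with a pseudocount of 2. Tardbp and Fmo5, both within 1 of 0, changed sign without rescaling. The requirement of 2 or more members within 10 kb left only Hjurp among the genes compared for Pol II and gave no value. The scores, the unknown depth and 1 library per time limit every comparison: a site absent from a list may have been bound below the authors' threshold.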

Other observations

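Sites in both 0 h lists that were absent from the last lists were also counted. Of the 20601 sites in both 0 h lists, 3962 (19.2%) were in no list of 48 or 168 h, against 462 late-gained sites. These are counts of the authors' lists, which held 29383 (C/EBPalpha) and 54574 (C/EBPbeta) regions at 0 h and 25972 and 25781 at 168 h. The 3 h lists held 31003 and 35256 regions, and the 48 h lists, the shortest, 20061 and 20608. The counts thus required absence from lists of unlike length, and the part of this in their difference was not tested. With absence required at 0 h only, the gained sites were 2972.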
